A study of Homo sapiens with 39 samples.

Results

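The comparison is between JJN3 cells kept for 24 h with DMSO and the same line at the start of the experiment, labelled T0. JJN3 is a human multiple myeloma line, that is, a line of malignant plasma cells, grown in RPMI medium with 10% fetal calf serum, and DMSO is a solvent in common use as a vehicle control for compounds such as GSK-J4, an inhibitor of the KDM6 histone demethylases. The members were taken by their labels: 3 libraries labelled DMSO at 24 h and 3 labelled T0, that is 6 of 39 libraries, and the 14460 of 57773 listed genes that passed a filter on low counts over all 39. The other libraries hold DMSO at 1, 3 and 6 h and GSK-J4 or ZnSO4 at 1, 3, 6 and 24 h, with 3 libraries in each of the 13 groups, although the treatment protocol in the labels names only the 3, 6 and 24 h times. T0 has no vehicle and no time in culture, so time, vehicle and handling cannot be told apart between the groups, and neither the DMSO concentration nor the cell density nor any change of medium is stated in the sources used. The labels do not say whether the 3 libraries of a group came from separate cultures. The p-values reflect only the spread among libraries within groups, estimated over all 39 libraries, and that spread could be technical.

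As background, cells in culture use up glucose, amino acids and serum factors and fill their medium with metabolites between feedings. Several transcription programmes read this: growth factor signalling through ERK induces immediate early genes such as FOS and EGR1 within minutes, the FOXO factors become active when signalling through AKT weakens and switch on genes of arrest and catabolism, and ATF4 is translated under amino acid shortage or endoplasmic reticulum stress. Plasma cells carry a heavy secretory load, and their identity rests on the transcription factors IRF4, PRDM1 and XBP1 and on surface proteins such as SDC1 (CD138) and TNFRSF17 (BCMA).

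The 6 libraries held 4931656 to 8798556 counts each (4347745 to 10695671 over all 39), which makes 3 counts equal to 0.341 to 0.608 CPM (counts scaled to a common library size). Of the plasma cell markers, SDC1 stood at 235.5 to 274.5 CPM at T0, TNFRSF17 at 238.3 to 381.9 CPM and IRF4 at 728 to 871.6 CPM. CD27 and TNFRSF13B of the same list had only 4 and 2 counts over the T0 libraries. Immunoglobulin genes made up 0.1905% to 0.2053% of the T0 counts. Mitochondrially encoded RNA made up 2.92% to 3.69% of the counts at T0 and 4.75% to 5.19% in DMSO at 24 h. RNAs annotated as small nuclear RNA, which are not polyadenylated in their mature form, summed to 42.1 to 92.5 CPM, here by library totals, at T0, 29.8 to 107 in the 27 libraries of 1, 3 and 6 h and 107 to 152 in the 9 libraries of 24 h. The labels give no preparation batch, so a difference in preparation between the 24 h and the T0 libraries cannot be told apart from time. T0 replicate 3 was the shallowest of the 6 and stood farthest from its group, with a chi-squared of 7.33 and 5.21 per gene against the other T0 libraries, where the T0 libraries 1 and 2 gave 3.15 and the DMSO 24 h pairs 1.498 to 2.27. In bulk RNA, fewer cells that use a gene and less of its RNA per cell cannot be told apart.

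At 24 h most of the transcriptome had moved. Of 14460 genes tested, 9140 (63.2%) changed, that is, passed an adjusted p of 0.05 (edgeR quasi-likelihood test, Benjamini-Hochberg over all genes tested): 4406 (30.5%) were higher and 4734 (32.7%) lower at 24 h. Most changes were small, with a median absolute log2 fold change (log2FC) of 0.69 among the changed genes, which is 1.61-fold. At least 2-fold, 1066 genes (7.37%) were higher and 1868 (12.9%) lower. Unless another comparison is named, log2FC values below are from this fit, DMSO 24 h over T0, and all levels are CPM scaled by TMM factors. The standard error after ± was worked back from the test, as the absolute log2FC over the square root of the F statistic. Those factors were 1.02 to 1.03 at T0 and 0.873 to 0.886 in DMSO at 24 h. With library totals alone in their place the median log2FC of all genes went from -0.02 to -0.24, and of the changed genes 29.8% were higher (2769 higher, 6519 lower) where the TMM fit gave 48.2%. The direction of a change of about 0.2 or less therefore depends on the scaling, and pairs of counts in brackets after a list's counts are those under library totals alone. Rises and falls of a list are to be read against the 30.5% higher and 32.7% lower of all genes tested. The lists were drawn up with earlier results of these data known.

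**Figure D1:**
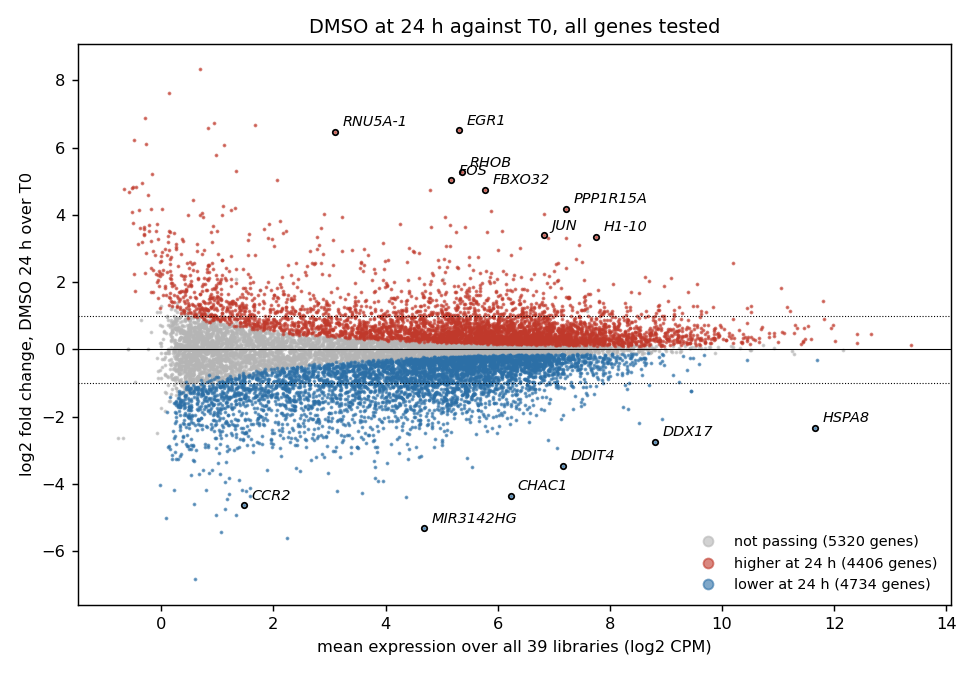
Each point is 1 of the 14460 genes tested, with its mean expression over all 39 libraries (log2 CPM) on the x axis and its log2FC of DMSO 24 h over T0 on the y axis; red points were higher (4406), blue lower (4734) and grey did not pass, and the dotted lines mark 2-fold. Large changes occur at all levels of expression, and falls of 2-fold or more (1868) outnumber such rises (1066; 2557 and 732 under library totals alone).

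Few genes passed the test at the earlier times. Against the same T0 libraries, 5 genes (0.0346%) changed at 1 h, 14 (0.0968%) at 3 h and 2 (0.0138%) at 6 h, with 1112 (7.69%), 1872 (12.9%) and 1778 (12.3%) at an unadjusted p under 0.05 and 13, 140 and 45 called by DESeq2. The 2 genes at 6 h were DDX6, an RNA helicase of mRNA decay, which rose by 0.38 ± 0.08, and CUTA, which fell by 0.39 ± 0.08 (both edgeR adjusted p = 0.044). Between 6 and 24 h in DMSO, 9071 genes (62.7%) changed, 4477 higher (31%) and 4594 lower (31.8%). The counts at the early times rest on single libraries: without T0 replicate 1 they were 47, 703 and 801, without T0 replicate 2 they were 58, 107 and 47, and without T0 replicate 3 the 3 h count was 3 and the 6 h count 0. Leaving out a DMSO library of that time gave 1 to 10 genes at 1 h, 1 to 22 at 3 h and 0 to 204 at 6 h. The 24 h count stayed between 8571 and 8952 with any 1 of its 6 libraries left out.

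**Figure D2:**
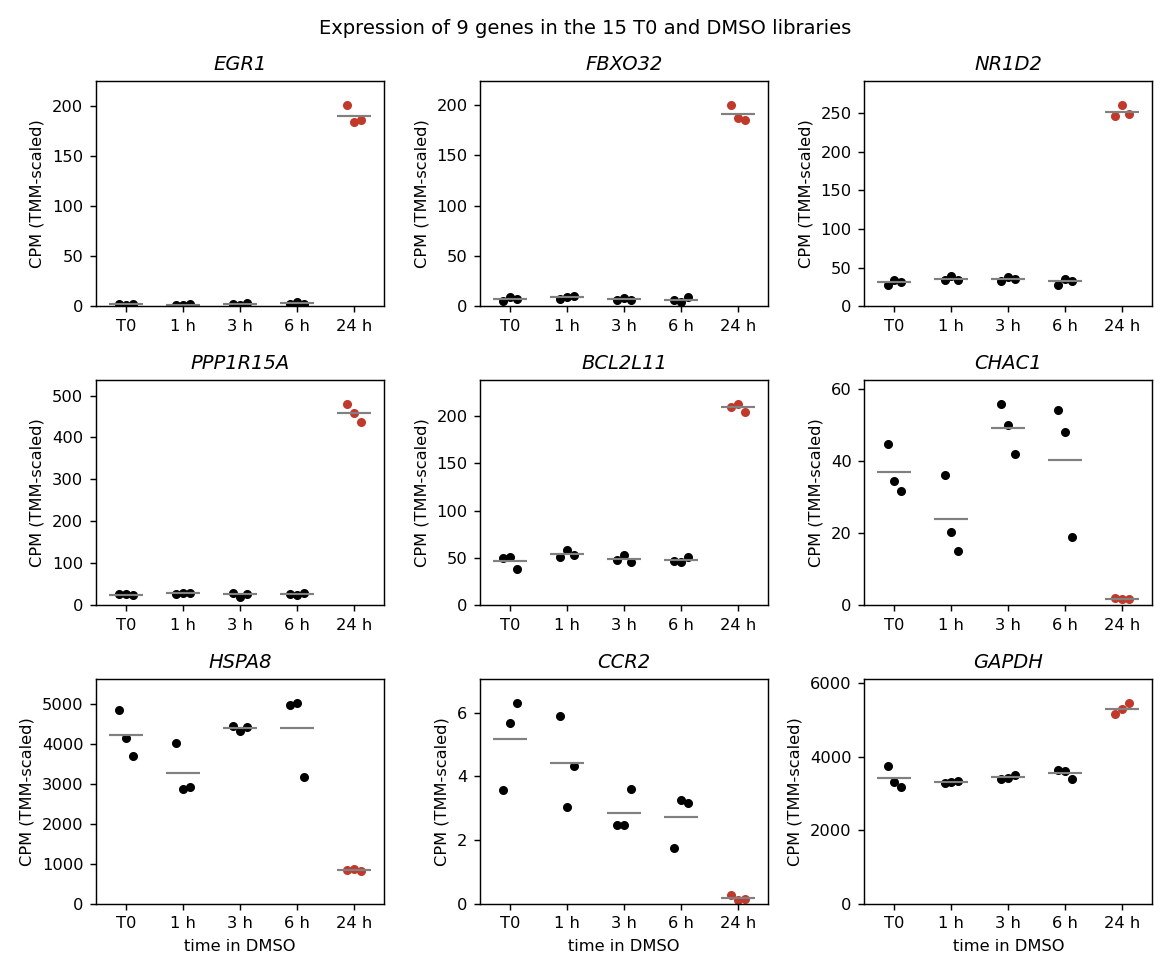
Expression of 9 genes (CPM, TMM-scaled, linear axes from 0) in the 3 libraries (points) of T0 and of DMSO at 1, 3, 6 and 24 h, with the group mean as a line; the times on the x axis are not to scale. EGR1, FBXO32, NR1D2, PPP1R15A, BCL2L11 and GAPDH lie higher in all 3 libraries of 24 h (red) than in any T0 library, and CHAC1, HSPA8 and CCR2 lie lower in all 3; EGR1 is at a mean of 2.79 CPM at 6 h, near its T0 level.

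The immediate early genes rose almost without exception. Of 20 tested, 19 rose, 0 fell and NR4A1 did not pass (log2FC 0.08 ± 0.45). The median log2FC was 1.81, where that of all genes was -0.02. At 6 h no member had changed, but only 2 of all 14460 genes tested (0.0138%) had. EGR1, a zinc finger transcription factor induced by growth factors and stress, stood at 2.33, 1.32 and 2.76 CPM in the T0 libraries and at 201, 184 and 186 CPM at 24 h. Every library of 24 h was above every library of T0, and the log2FC of 6.52 ± 0.18 (edgeR adjusted p = 3.8e-40) was among the largest of all genes. Genes named here and below for a large change or a small p were taken only where the groups did not overlap. For such genes the lack of overlap was set by the choice and adds no support. FOS, which pairs with JUN in the AP-1 factor, went from 6.43, 2.90 and 2.56 CPM to 136, 140 and 126 CPM. Its log2FC was 5.02 ± 0.20 (edgeR adjusted p = 3.4e-32). JUN itself rose from 39.7, 35.5 and 33.3 CPM to 384, 400 and 363 CPM, a log2FC of 3.39 ± 0.07. The 3 JUN libraries at 24 h are close to each other and far from T0.

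The AP-1 partners FOSB and JUND rose by 3.34 ± 0.33 and 2.56 ± 0.08, and IER2, an immediate early nuclear protein, by 3.32 ± 0.07. ATF3, a stress-induced member of the ATF family that also counts among the targets of ATF4, rose from 8.49, 7.51 and 9.86 CPM to 108, 109 and 118 CPM (log2FC 3.71 ± 0.12). The orphan receptor NR4A2 rose by 3.09 ± 0.28, while its relative NR4A1 was at 0.92 to 1.92 CPM at T0 and 1.41 to 1.63 CPM at 24 h, so that its groups overlapped. The phosphatase DUSP1, which switches off MAP kinases, rose by 2.94 ± 0.14. RHOB, a small GTPase that is itself an immediate early gene, was in none of the lists. It rose from 3.97, 3.56 and 2.37 CPM to 139, 129 and 129 CPM (log2FC 5.28 ± 0.15).

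The KLF genes, zinc finger factors of which several are immediate early genes or FOXO targets, were grouped by name after their values had been seen: 9 of 11 tested rose and none fell, with a median log2FC of 1.62, while under library totals alone 8 rose and 2 fell. KLF6 rose from 52.6, 58.9 and 77.1 CPM to 538, 556 and 504 CPM (log2FC 3.11 ± 0.08), KLF5 by 3.01 ± 0.12, KLF11 by 2.41 ± 0.12, KLF9 by 2.07 ± 0.15, KLF2 by 2.01 ± 0.12 and KLF10 by 1.62 ± 0.08. None of the 11 had changed at 6 h, beside 2 of all 14460 genes tested (0.0138%). Of the feedback genes that ERK signalling induces and that damp it, 9 of 12 rose and 2 fell (6 and 3 under library totals alone). The phosphatases DUSP2 and DUSP6 rose by 1.71 ± 0.11 and 0.66 ± 0.08 and the inhibitors SPRY4 and SPRY2 by 1.18 ± 0.12 and 1.00 ± 0.14, while the inhibitor SPRED1 fell from 40.2 to 47.5 CPM at T0 to 20.97 to 28.2 CPM at 24 h (log2FC -0.91 ± 0.09).

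The promoter of EGR1 is printed because the gene had the largest rise among the immediate early genes and because its start region holds the sequence that serum response factor binds, the CArG box. Shown are the 250 bases before the RefSeq transcription start (GRCh38.p14, another build than the hg19 alignment, chr5:138465229-138465478, plus strand), 5′ to 3′, with the 2 CArG boxes in capitals; they begin 105 and 83 bases before the start.

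EGR1: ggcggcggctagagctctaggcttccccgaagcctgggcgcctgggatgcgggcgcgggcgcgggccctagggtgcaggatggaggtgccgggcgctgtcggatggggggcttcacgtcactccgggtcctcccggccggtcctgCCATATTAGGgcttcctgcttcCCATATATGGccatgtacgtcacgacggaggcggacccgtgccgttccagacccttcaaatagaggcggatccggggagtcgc

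A CArG box on either strand lies in 110 of the 9983 promoters of tested genes (1.1%; 250 bases before to 50 after the start), in 1.29% of all 27305 RefSeq promoters, in 12 of 637 promoters of genes that rose at least 2-fold (1.88%) and in 12 of 1222 of genes that fell at least 2-fold (0.982%). Among the immediate early genes it was found in 1 of 16 promoters with an entry, that of EGR1. The match is a description of letters in a window and no evidence of binding.

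Genes that FOXO factors or the loss of growth factors are known to raise formed the second set with large rises. Of 20 tested, 15 rose and 3 fell, with a median log2FC of 1.76, and the counts were the same under library totals alone. FBXO32 (atrogin-1), a ubiquitin ligase subunit of protein breakdown, went from 5.202, 8.83 and 7.29 CPM to 200, 187 and 186 CPM. The log2FC of FBXO32 was 4.74 ± 0.11 (edgeR adjusted p = 3.3e-43). CCNG2, a cyclin linked to arrest rather than division, went from 2.19, 1.45 and 1.38 CPM to 26.8, 28.9 and 28.01 CPM (log2FC 4.02 ± 0.21). YPEL5 and YPEL2, small zinc-binding proteins of the yippee family, rose by 3.73 ± 0.16 and 2.58 ± 0.19, and KLHL24, a ubiquitin ligase adaptor, by 2.63 ± 0.10. IRS2, an adaptor of the insulin receptor, rose by 2.67 ± 0.10, PIK3IP1, which restrains PI3 kinase, by 2.08 ± 0.21, and the coactivator PNRC1 by 2.32 ± 0.09.

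The 3 members that fell were CDKN1B, the p27 inhibitor of cyclin-dependent kinases, at 82.4 to 103 CPM at T0 and 35.2 to 39.8 CPM at 24 h (log2FC -1.34 ± 0.08), the pocket protein RBL2 (-0.99 ± 0.09) and the insulin receptor INSR (-0.61 ± 0.08). CDKN1B is a textbook FOXO target, and it moved against most of the other members.

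Genes of the circadian clock moved in both directions. Of 15 tested, 8 rose and 4 fell (8 and 5 under library totals alone), with a median log2FC of 0.81. Of the repressors, NR1D2 (REV-ERB beta) went from 27.9, 34.1 and 31.2 CPM to 246, 259.9 and 249 CPM, without overlap (log2FC 3.02 ± 0.07, edgeR adjusted p = 1.5e-42), PER1 rose by 2.76 ± 0.09, BHLHE40 by 2.35 ± 0.10 and NR1D1 by 1.92 ± 0.12. RORA, the activator that competes with the REV-ERB proteins, rose by 1.75 ± 0.07. The positive factor CLOCK fell from 31.9 to 36.5 CPM at T0 to 17.7 to 22.6 CPM (log2FC -0.78 ± 0.12), and the output factors DBP and TEF fell by 1.14 ± 0.26 and 1.05 ± 0.32. Genes that glucocorticoids induce, several of which stand in the lists above as well, rose in 6 of 8 cases (6 rises and 2 falls under library totals alone): SGK1, a kinase related to AKT, by 2.69 ± 0.07, and TSC22D3 (GILZ) by 2.15 ± 0.09. The member that fell was DDIT4 (-3.46 ± 0.20). FKBP5, a defining glucocorticoid target, stood at 172 to 195 CPM at T0 and 163 to 180 CPM at 24 h and did not pass (-0.09 ± 0.05). Under library totals alone it was lower (-0.31), and it passed also without T0 replicate 3 or DMSO 24 h replicate 2 (-0.13 in each case).

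Of 32 targets of ATF4 tested, 11 rose (34.4%) and 13 fell (40.6%). Of all genes tested, 30.5% rose and 32.7% fell. Under library totals alone 10 rose and 18 fell. In the TMM fit their median log2FC of 0.01 was near that of all genes. ATF4 itself rose from 426, 392.3 and 409 CPM to 920, 896 and 966 CPM (log2FC 1.18 ± 0.05). PPP1R15A (GADD34), the phosphatase subunit that restores translation after stress, went from 26.3, 25.3 and 23.3 CPM to 479.9, 457.8 and 436.9 CPM. That is the largest rise among these targets (log2FC 4.19 ± 0.11, edgeR adjusted p = 5e-41). DDIT3 (CHOP), a pro-apoptotic factor of the same pathway, rose by 2.59 ± 0.14, the amino acid transporters SLC38A2 and SLC7A11 by 1.30 ± 0.07 and 0.93 ± 0.11, and SESN2, a leucine-sensing inhibitor of mTORC1, by 0.85 ± 0.10.

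CHAC1, a glutathione-degrading enzyme that is among the most inducible ATF4 targets, moved the other way: 44.6, 34.4 and 31.7 CPM at T0 and 1.90, 1.81 and 1.72 CPM at 24 h. All 3 libraries of 24 h were far under T0 (log2FC -4.35 ± 0.32, edgeR adjusted p = 5.8e-19). CEBPB, an ATF4 partner, fell by 1.78 ± 0.14, the lipoprotein receptor VLDLR by 1.65 ± 0.29, and the serine and folate enzymes PSAT1, PSPH and MTHFD2 by 0.74 ± 0.06, 0.82 ± 0.10 and 0.58 ± 0.05. TRIB3 and ASNS, further classical targets, did not pass (-0.07 ± 0.06 and 0.13 ± 0.07). TRIB3 was lower under library totals alone (-0.29) and ASNS passed without T0 replicate 1 (0.23). Of the cytosolic tRNA synthetases, many of them ATF4 targets, 3 of 20 rose and 8 fell (2 and 16 under library totals alone), led by AARS1 at 333 to 347 CPM at T0 and 147 to 151 CPM at 24 h (log2FC -1.19 ± 0.05) and FARSA (-1.09 ± 0.06).

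Promoters of 2 ATF4 targets with opposite changes are shown, that of PPP1R15A (chr19:48872171-48872420, plus strand) with its cyclic AMP response element TGACGTCA in capitals, beginning 58 bases before the start, and that of CHAC1 (chr15:40953221-40953470, plus strand) with its match to the C/EBP-ATF element TGATGNAA, here read on the reverse strand, beginning 209 bases before the start. Both are RefSeq sequences of GRCh38.p14 and show the 250 bases before the start, 5′ to 3′.

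PPP1R15A: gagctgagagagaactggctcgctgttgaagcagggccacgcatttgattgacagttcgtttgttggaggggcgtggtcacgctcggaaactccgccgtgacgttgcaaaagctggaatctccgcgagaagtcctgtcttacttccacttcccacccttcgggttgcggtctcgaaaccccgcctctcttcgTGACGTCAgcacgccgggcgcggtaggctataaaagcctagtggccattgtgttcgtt

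CHAC1: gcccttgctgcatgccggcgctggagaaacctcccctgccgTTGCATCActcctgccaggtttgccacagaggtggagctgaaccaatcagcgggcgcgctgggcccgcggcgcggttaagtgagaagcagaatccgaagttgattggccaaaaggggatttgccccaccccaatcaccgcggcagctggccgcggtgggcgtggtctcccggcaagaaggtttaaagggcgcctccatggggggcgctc

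On either strand, TGACGTCA lies in 3.4% of the promoters of tested genes, in 4.24% of those that rose at least 2-fold and in 1.72% of those that fell at least 2-fold. TGATGNAA lies in 1.64% of the promoters of tested genes, in 0.785% and 1.96% of those that rose and fell at least 2-fold, and in 5 of the 28 ATF4 targets with an entry (17.9%). Matches to different motifs were counted separately, and they describe letters only.

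Among genes of the endoplasmic reticulum, 15 of 26 rose and 5 fell (7 and 9 under library totals alone), with a median log2FC of 0.22. HSPA5 (BiP), the main chaperone of the compartment, rose from 1668, 1846 and 1679 CPM to 4148, 4159 and 4121 CPM (log2FC 1.26 ± 0.04, edgeR adjusted p = 4e-34). The co-chaperone DNAJC3 and the degradation factor HERPUD1 rose by 1.05 ± 0.06 and 0.99 ± 0.05. MANF, a secreted stress protein that usually moves with HSPA5, fell from 179 to 199 CPM to 92.8 to 103 CPM (log2FC -0.96 ± 0.06). Cytosolic heat shock genes fell: 12 of 18 were lower, 2 higher (14 and 2 under library totals alone), with a median log2FC of -0.56. HSPA8, the constitutive HSP70, went from 4848, 4163 and 3698 CPM to 838, 870.7 and 827.2 CPM, which puts every 24 h library under every T0 library (log2FC -2.33 ± 0.10, edgeR adjusted p = 9e-31). HSPH1, the exchange factor of HSP70, fell by 2.18 ± 0.08 and HSPA4L by 1.37 ± 0.11. DNAJB1, an HSP40, stood at 315, 200.2 and 186.5 CPM at T0 and 66.5 to 70.8 CPM at 24 h (log2FC -1.78 ± 0.18). It was also among the 5 genes called at 1 h (-0.78 ± 0.17), but stood at 0.45 ± 0.16 and 0.19 ± 0.16 at 3 and 6 h, neither passing. The members that rose were HSP90AB1 (0.46 ± 0.04) and BAG3, a co-chaperone of selective autophagy (0.89 ± 0.15).

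Of the BCL2 family, 8 of 15 rose and 2 fell (7 and 4 under library totals alone), with a median log2FC of 0.61. The largest rises were those of some BH3-only genes, whose proteins trigger mitochondrial apoptosis. Others of that class, BAD (-0.13 ± 0.14) and BID (0.16), did not pass. BBC3 (PUMA) went from 7.39, 6.99 and 8.48 CPM to 90.2, 93.8 and 99.99 CPM and BCL2L11 (BIM) from 49.7, 51.3 and 38.3 CPM to 209.8, 212.9 and 204.8 CPM. Neither gene's groups overlapped, and the log2FC values were 3.65 ± 0.11 and 2.15 ± 0.08. PMAIP1 (NOXA) rose by 1.54 ± 0.07 and BMF by 0.65 ± 0.07. Of the survival proteins, BCL2 fell from 129, 135 and 151 CPM to 70.6, 77.9 and 66.4 CPM (log2FC -0.94 ± 0.07), MCL1, on which myeloma cells are known to depend, rose by 0.61 ± 0.05, and BCL2L1 did not pass (0.10 ± 0.10). Of the p53 targets, 11 of 17 rose and 3 fell (10 and 5). TP53INP1, which promotes autophagy and cell death and is a target of FOXO factors too, rose by 3.07 ± 0.10, CDKN1A (p21) from 2.37 to 5.34 CPM to 8.14 to 9.23 CPM (log2FC 1.18 ± 0.22), and MDM2, the feedback inhibitor of p53, by 0.46 ± 0.07. BAX did not pass (-0.09 ± 0.08), but was lower under library totals alone (-0.32).

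Cell cycle genes moved by less and in both directions. Of the S phase set, 13 of 24 rose and 3 fell (11 and 9 under library totals alone), among them the replication clamp PCNA, from 683, 622 and 625 CPM to 1047, 1052 and 1084 CPM (log2FC 0.72 ± 0.05), the helicase subunit MCM7 (0.71 ± 0.05) and CCNE2 (0.73 ± 0.08). Of the mitotic set, 10 of 24 rose and 9 fell (6 and 12), with only 4 falls without T0 replicate 1. In the full fit 41.7% were thus higher and 37.5% lower, beside 30.5% and 32.7% of all genes tested. CCNB2 rose from 56.7, 39.2 and 32.7 CPM to 102, 98.2 and 99.1 CPM (log2FC 1.19 ± 0.10), while the kinase AURKA fell from 42.7, 32.7 and 24.8 CPM to 11.95, 12.4 and 9.08 CPM (-1.60 ± 0.14) and the topoisomerase TOP2A fell by 0.64 ± 0.08. CCNB1 was at 54.6, 35.9 and 37.9 CPM at T0 and 33.7 to 37.2 CPM at 24 h. Its log2FC of -0.28 ± 0.11 passed in the full fit but was -0.05 without T0 replicate 1. GINS1, a replication factor outside the S phase list, was among the 10 clearest falls, from 113.5, 110.9 and 108.8 CPM to 26.6, 25.3 and 23.2 CPM (-2.15 ± 0.08).

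Of the G1 regulators, 4 of 12 rose (33.3%) and 6 fell (50%), with 4 and 8 under library totals alone. Among all genes tested the shares were 30.5% and 32.7%. Apart from CDKN1B, the falls included the D cyclin CCND2, from 403 to 434 CPM to 239.7 to 258.8 CPM (log2FC -0.76 ± 0.05), and CDK4 (-0.41 ± 0.06). The kinase inhibitors CDKN2D (p19) and CDKN1C (p57) rose by 2.25 ± 0.20 and 1.66 ± 0.23.

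Metabolic genes showed strong single members in sets with small medians. Glycolysis had 10 rises and 3 falls of 18, but 3 and 7 under library totals alone, and its median of 0.17 became -0.05. GAPDH rose by 0.64 ± 0.05 and the lactate carrier SLC16A1 (MCT1) by 0.91 ± 0.05, while SLC16A3 (MCT4), which exports lactate from glycolytic cells, fell from 29.02, 26.5 and 28.2 CPM to 8.01, 9.17 and 9.39 CPM (log2FC -1.65 ± 0.14). Of the glucose-responsive genes, 4 of 8 rose and 2 fell (4 and 3), with a median of 0.24, or 0.02 under library totals alone. Among them the glucose transporter SLC2A1 (GLUT1) rose from 35.5, 35.1 and 35.7 CPM to 179, 173.4 and 183 CPM (2.33 ± 0.08). The arrestin ARRDC3, a relative of the glucose-induced arrestin ARRDC4, rose by 2.33 ± 0.07. ARRDC4 itself had too few counts to be tested (1 over the T0 libraries and 3 over those of 24 h). MLX, the partner of the glucose-sensing factors MLXIP and MLXIPL, fell from 83.9, 76.2 and 76.9 CPM to 20.2, 18.1 and 20.8 CPM (-2.01 ± 0.09).

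Of the hypoxia genes, 7 of 16 rose and 5 fell (6 and 7 under library totals alone). These shares, 43.8% and 31.2%, compare with 30.5% and 32.7% of all genes tested. NDRG1 rose from 228, 261 and 273 CPM to 1027, 993 and 1070 CPM (log2FC 2.02 ± 0.05), the demethylase KDM3A by 2.105 ± 0.07, the mitophagy receptor BNIP3L by 1.99 ± 0.08 and the peptide hormone ADM by 1.86 ± 0.06. Against them, VEGFA fell by 0.37 ± 0.06. DDIT4 (REDD1), an inhibitor of mTORC1, fell from 98.8, 73.6 and 70.8 CPM to 7.88, 5.81 and 8.76 CPM (-3.46 ± 0.20), STC2 by 2.69 ± 0.11 and INSIG2 by 2.195 ± 0.17. DDIT4 and STC2 are also induced through ATF4, and DDIT4 by glucocorticoids.

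Of the targets of LXR, the receptor that senses oxysterols, 4 of 6 rose: MYLIP (IDOL), a ubiquitin ligase, from 16.2, 19.1 and 17.4 CPM to 201.2, 199.2 and 197.6 CPM (log2FC 3.503 ± 0.09, edgeR adjusted p = 2.4e-42), the cholesterol exporters ABCA1 and ABCG1 by 2.44 ± 0.13 and 0.80 ± 0.21, and APOE by 2.67 ± 0.35. NR1H3, which encodes LXR alpha, fell from 2.33, 2.51 and 3.35 CPM to 0.815, 0.904 and 0.626 CPM (-1.73 ± 0.40). Of the genes of cholesterol synthesis and uptake, 6 of 23 rose and 10 fell (5 and 13), with a median of -0.11. These shares, 26.1% higher and 43.5% lower, compare with 30.5% and 32.7% of all genes tested. MSMO1 fell by 1.05 ± 0.08 and SQLE by 0.57 ± 0.06, while IDI1 rose by 0.90 ± 0.07. Fatty acid genes gave 5 rises and 5 falls of 12 (4 and 6), with SREBF1 and FASN higher (0.74 ± 0.08 and 0.58 ± 0.07) and the desaturase SCD lower (-0.37 ± 0.06).

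Of the lysosome and autophagy genes, 15 of 24 rose and 2 fell (8 and 5 under library totals alone), with a median of 0.25. The autophagosome proteins MAP1LC3B and GABARAPL1 rose by 1.97 ± 0.07 and 1.09 ± 0.10, the initiating kinase ULK1 from 14.7, 16.9 and 20.5 CPM to 38.97, 38.1 and 38.8 CPM (1.18 ± 0.12), and the cargo receptor SQSTM1 by 0.72 ± 0.05. The 2 falls were TFEB, the transcription factor that drives these genes (-0.93 ± 0.13), and FLCN, which holds TFEB in the cytoplasm (-1.04 ± 0.11).

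All 13 mitochondrially encoded mRNAs rose (11 under library totals alone), with a median log2FC of 0.72 and a wide range, from MT-CO1 at 5772, 5548 and 4789 CPM at T0 and 6024, 6197 and 6326 CPM at 24 h (0.20 ± 0.05, or -0.02 under library totals alone) to MT-ND1 at 1387, 1429 and 1085 CPM and 4224, 4710 and 4870 CPM (1.82 ± 0.06). These transcripts are cut from a few long precursors, and their log2FC values ranged from 0.20 to 1.82 within the same libraries. Of the nuclear genes of the respiratory chain, 28 of 38 rose and 2 fell (10 and 8 under library totals alone), with a median of 0.24. NDUFV2, a subunit of complex I, was far outside that range: 7.12, 8.57 and 8.08 CPM at T0 and 37.8, 39.5 and 37.1 CPM at 24 h (2.27 ± 0.12), while the next gene was NDUFS3 at 0.67 ± 0.07. Of the cytosolic ribosomal proteins, 45 of 48 rose, with a median of 0.33 and a highest value of 0.61 ± 0.05 for RPS20; under library totals alone 22 rose and 1, RPL13, fell. Of the genes of ribosome building, 12 of 24 rose and 8 fell (7 and 10): the abundant nucleolar proteins NPM1 and NCL rose by 0.50 ± 0.05 and 0.48 ± 0.05, and the assembly factors RRS1 and BYSL fell by 1.81 ± 0.07 and 1.14 ± 0.08. MYC, which drives this programme, was at 838, 1375 and 874 CPM at T0 and 1332, 1297 and 1411 CPM at 24 h, so that the groups overlapped. Its log2FC of 0.39 ± 0.09 passed, but not under library totals alone (0.16).

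**Figure D3:**
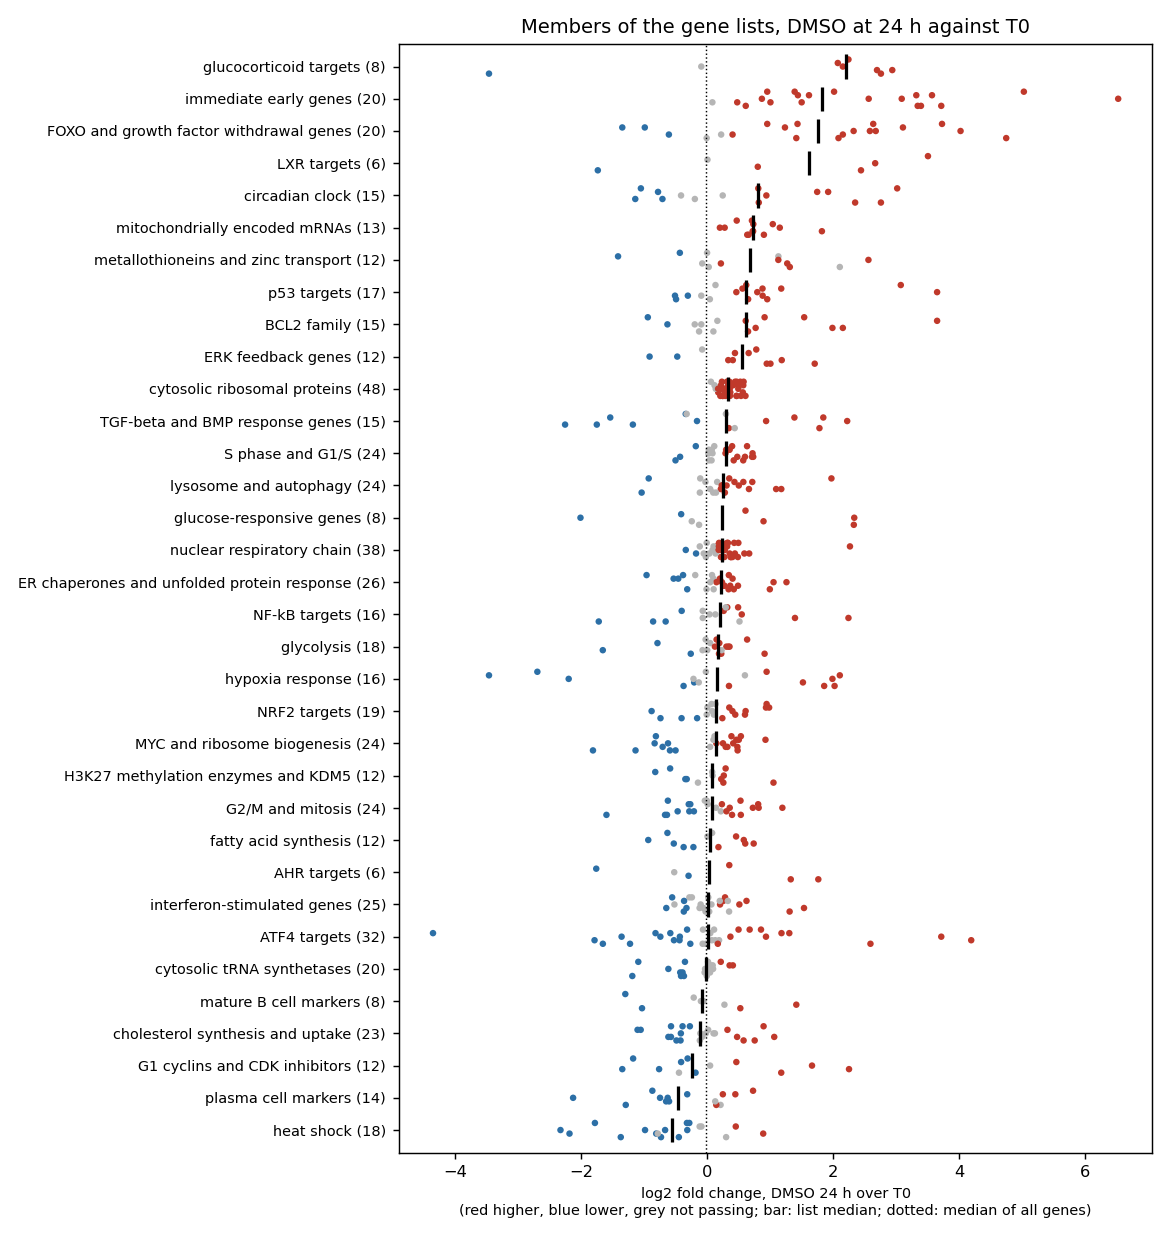
Each row is 1 of the gene lists, with the number of members tested in brackets, and each point is a member's log2FC of DMSO 24 h over T0 on the x axis (red higher, blue lower, grey not passing); the black bar is the median of the list and the dotted line that of all genes (-0.02). Immediate early genes (median 1.81) lie to the right, FOXO genes (1.76) mostly so, with 3 of 20 lower, heat shock genes (-0.56) mostly to the left, and ATF4 targets (0.01) spread from -4.35 to 4.19.

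Of the plasma cell markers, 4 of 14 rose and 8 fell (2 and 8 under library totals alone, 6 and 8 with RLE size factors), with a median of -0.46. Several surface proteins fell: SDC1 from 236, 275 and 241 CPM to 144, 133 and 136 CPM (log2FC -0.87 ± 0.05), the adhesion receptor SLAMF7, a target of myeloma antibodies, from 51.6, 74.9 and 77.5 CPM to 25.9, 29.1 and 27.7 CPM (-1.29 ± 0.11), FCRL5 from 10.8, 12.7 and 10.7 CPM to 1.77, 2.45 and 3.76 CPM (-2.12 ± 0.22) and TNFRSF17 by 0.75 ± 0.08. The surface enzyme CD38, at 24.6, 20.96 and 22.7 CPM at T0 and 26.2, 24.3 and 28.95 CPM at 24 h, did not pass (0.21 ± 0.10). It was called higher with RLE size factors (0.22), with the 15 T0 and DMSO libraries (0.26), without T0 replicate 1 (0.28) or without DMSO 24 h replicate 2 (0.27). The transcription factors IRF4 and PRDM1 rose by 0.73 ± 0.06 and 0.45 ± 0.06, and XBP1 fell by 0.32 ± 0.06. The mature B cell list gave 2 rises and 2 falls of 8, 25% each (2 and 3 under library totals alone). Its member CIITA, the switch of MHC class II genes, fell by 1.30 ± 0.11.

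NF-kB targets gave 6 rises and 4 falls of 16 (4 and 5 under library totals alone). These shares were 37.5% and 25%, where 30.5% of all genes tested rose and 32.7% fell. NFKBIA, the inhibitor that NF-kB induces, rose from 72.0, 67.5 and 58.9 CPM to 313.4, 314.8 and 317.3 CPM (log2FC 2.24 ± 0.06, edgeR adjusted p = 1.8e-40), and the subunit RELB by 1.39 ± 0.08. BIRC3, an apoptosis inhibitor, fell by 1.72 ± 0.07 and the subunit NFKB2 by 0.86 ± 0.06. Interferon-stimulated genes gave 7 rises and 5 falls of 25 (3 and 8), or 28% and 20%, both under the shares of all genes. IRF1 rose most (1.54 ± 0.07), while ISG15 did not pass (0.02 ± 0.20). TGF-beta and BMP genes gave 6 of each among 15, 40% each (5 and 7 under library totals alone, and 3 rises without DMSO 24 h replicate 2). The inhibitor SMAD7 and the target ID2 rose by 1.78 ± 0.10 and 1.84 ± 0.08, and the corepressor SKI fell by 1.54 ± 0.10.

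The lists closest to the study's 2 compounds held genes that changed in the vehicle. Of zinc genes 41.7% were higher and 16.7% lower, and of NRF2 targets 47.4% and 21.1%, beside 30.5% and 32.7% of all genes tested. Of the metallothioneins and zinc transporters, 5 of 12 rose and 2 fell (4 and 2). SLC30A1, which exports zinc and answers to it through MTF1, rose from 51.5, 54.1 and 50.1 CPM to 117, 109.9 and 115 CPM (log2FC 1.13 ± 0.08), MT1X rose by 1.31 ± 0.20, and the importer SLC39A10 fell by 1.41 ± 0.12. SLC30A1 was also among the 14 genes called at 3 h (0.43 ± 0.09), but did not pass at 6 h (0.25 ± 0.09). MT1G, higher at 24 h (2.56 ± 0.68), was among the 5 genes called at 1 h (2.98 ± 0.64). At 3 and 6 h MT1G stood at 0.53 ± 1.00 and 1.55 ± 0.82, neither passing. Of the NRF2 targets, 9 of 19 rose and 4 fell (6 and 7): TXNRD1 and GCLC rose by 0.98 ± 0.07 and 0.94 ± 0.06, HMOX1 by 0.45 ± 0.13 (0.22 and not passing under library totals alone), and GCLM fell by 0.74 ± 0.07. Of the enzymes that write or erase H3K27 methylation and the KDM5 demethylases, 5 of 12 rose and 4 fell (1 and 5). Their shares of 41.7% higher and 33.3% lower stand beside the same 30.5% and 32.7%. KDM6B, a target of GSK-J4, fell from 13.6, 19.3 and 17.4 CPM to 9.37, 10.5 and 8.29 CPM (-0.82 ± 0.15), KDM6A did not pass (0.09 ± 0.10), and KDM5B rose by 1.05 ± 0.35. Of the aryl hydrocarbon receptor (AHR) genes, 3 of 6 rose (50%) and 2 fell (33.3%), with 2 and 2 under library totals alone and a median of 0.03. AHR itself and its target TIPARP rose by 1.76 ± 0.08 and 1.33 ± 0.06, while the target AHRR fell by 0.29. The target CYP1B1, with few counts and overlapping groups, had a log2FC of -1.76 ± 0.49 that passed.

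Large and clear single changes also lay outside the lists. By the smallest p, the rises included the linker histone H1-10, at 63.5, 64.9 and 61.3 CPM at T0 and 632.5, 632.3 and 685.4 CPM at 24 h (log2FC 3.36 ± 0.07, edgeR adjusted p = 1.8e-46), UBALD2 (3.31 ± 0.07), the zinc finger factor ZBTB10 (3.53 ± 0.08) and CCNL1, a cyclin of the splicing machinery (2.13 ± 0.05). OTUD1, a deubiquitinase, went from 3.83, 4.48 and 3.15 CPM to 96.3, 108 and 108 CPM (4.73 ± 0.13). The falls included the RNA helicase DDX17, from 513, 592 and 495 CPM to 83.4, 79.3 and 76.4 CPM (-2.74 ± 0.06, edgeR adjusted p = 6e-45), the bZIP factor CREBZF (-2.93 ± 0.07) and the 14-3-3 protein YWHAG (-2.05 ± 0.05). By size, the falls included the microRNA host transcript MIR3142HG, from 31.9, 38.8 and 37.3 CPM to 1.22, 0.775 and 0.626 CPM (-5.31 ± 0.20), the long non-coding LINC01355 (-4.39 ± 0.20) and the chemokine receptor CCR2, from 3.56, 5.67 and 6.31 CPM to 4 counts in all at 24 h. ZNF404 had 66 and 2 counts, a ratio of 35.5 with a 95% counting interval of 9.46 to 299.5. CCR2 was already at 2.73 CPM at 6 h against 5.18 CPM at T0, a difference that did not pass (-0.91 ± 0.29).

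Grouping genes by name or type after their values had been seen gave sets that leaned 1 way in the TMM fit. Among all genes tested 30.5% rose and 32.7% fell. Of 402 tested ZNF zinc finger genes, 207 (51.5%) fell and 96 rose, with a median log2FC of -0.44 (239 and 67 under library totals alone); ZNF594, ZNF132 and ZNF691 fell by 4.27 ± 0.25, 4.22 ± 0.29 and 3.92 ± 0.22. Of 204 SLC transporters, 95 fell (46.6%) and 38 rose (18.6%), with 119 and 27 under library totals alone. Of 23 histone genes, 18 rose and none fell (14 and 1): H2BC4 went from 2.88, 2.24 and 2.17 CPM to 33.8, 40.3 and 40.7 CPM (3.95 ± 0.18), H2BC21 rose by 3.00 ± 0.16 and the replacement histone gene H3-3B by 1.69 ± 0.06. Of 70 hnRNP, SRSF and RBM genes, which bind RNA in splicing, 39 rose (55.7%) and 16 fell (22.9%), with 33 and 26 under library totals alone. Of 924 long non-coding and antisense genes, 336 fell (36.4%) and 161 rose (17.4%), with 414 and 128 under library totals alone. Of 1306 pseudogenes, 413 rose (31.6%) and 171 fell (13.1%), but 229 and 228 under library totals alone. The 36.4% and 31.6% were near the shares of all genes, and the lean lay in fewer genes going the other way. The kit is not stated to keep strand, so reads of an antisense gene and of its partner cannot be told apart, and pseudogene counts can hold reads of the parent gene. Of 12 small nuclear RNAs, 9 rose and 1 fell; RNU5A-1 had 8 counts over the T0 libraries and 799 over those of 24 h.

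**Figure D4:**
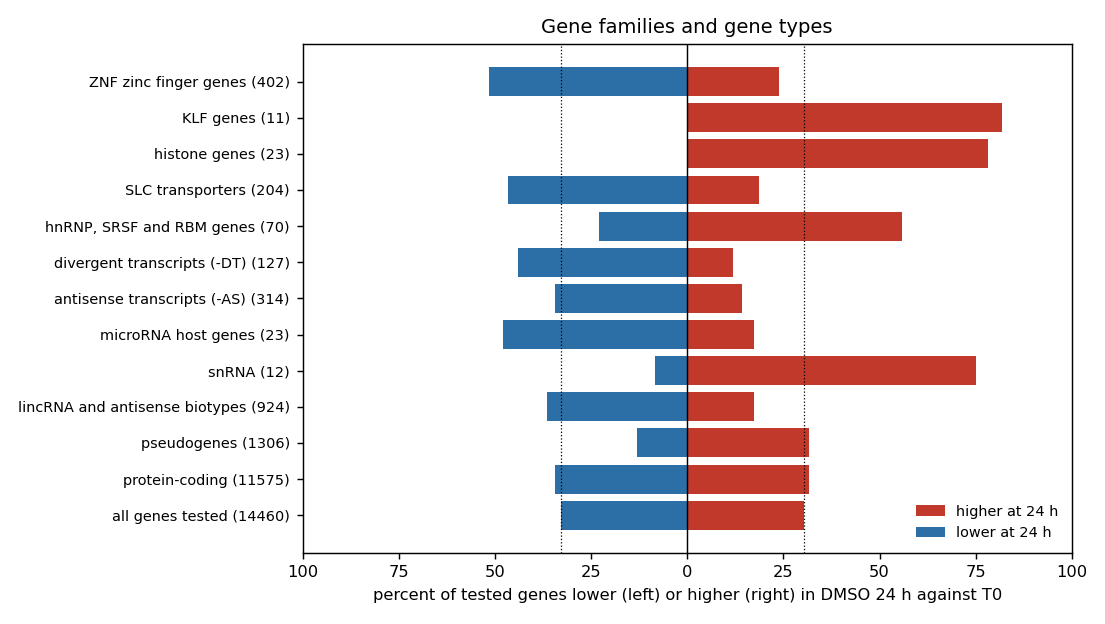
Percent of the tested genes of each family or gene type (number in brackets) that were lower (blue, left) or higher (red, right) in DMSO at 24 h against T0; the dotted lines mark the shares of all genes tested (32.7% lower, 30.5% higher). ZNF genes, SLC transporters and non-coding genes lean to the left, and KLF genes, histone genes and small nuclear RNAs to the right; these sets were formed after the values were seen.

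Transcript length and GC content of protein-coding genes moved with the calls to a small extent. In the quartile with the shortest transcripts 34.8% of genes were higher and 27.7% lower, and in the longest quartile 29.3% and 38%. In the quartile of lowest GC 35.2% were higher and 37.1% lower, and in the highest 25.4% and 33.7%. The part of length and GC in the changes was not tested.

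The treated cells cover only the later part of the interval, in libraries outside the 6 compared. They are GSK-J4 and ZnSO4 at 24 h against the same compound at 6 h. All 39 libraries shared the filter and the estimate of spread, so the 2 sets of calls are not fully separate. Of the 4406 genes higher in DMSO at 24 h against T0, 3415 (77.5%) were called higher from 6 to 24 h in GSK-J4, where 28.7% of all genes were, and 3538 (80.3%) in ZnSO4, where 28.4% were. Of the 4734 lower genes, 3730 (78.8%) and 3909 (82.6%) were called lower, against 30.5% and 31.5% of all genes. Opposite calls were few, 48 and 23 in GSK-J4 and 9 and 3 in ZnSO4. EGR1 rose by 4.25 in GSK-J4 and 5.09 in ZnSO4 from 6 to 24 h, FBXO32 by 4.27 and 4.39, and HSPA8 fell by 1.82 and 1.42. A gene without a matching call in GSK-J4 was PMAIP1, which rose in DMSO at 24 h against T0. From 6 to 24 h in GSK-J4 it was at -0.04 and did not pass.

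**Figure D5:**
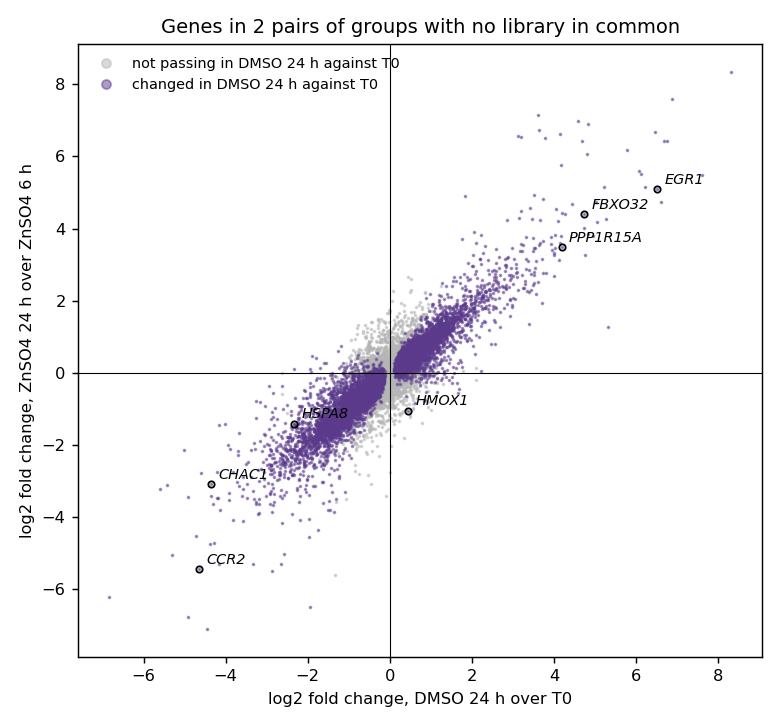
Each point is a gene tested, with its log2FC of DMSO 24 h over T0 on the x axis and of ZnSO4 24 h over ZnSO4 6 h on the y axis; purple genes changed in the first comparison and grey ones did not, and the 2 comparisons have no library in common. Most purple points lie in the lower left and upper right corners (80.3% of the higher and 82.6% of the lower genes were called the same way), and HMOX1 lies below 0 on the y axis (-1.06).

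Markers of other cell types were near the floor, with exceptions. Of 23 such genes, 5 to 8 were at 0 in each of the 6 libraries, among them the T cell gene CD3D in all 6. Of the 23, 7 could be tested, of which 5 rose and none fell (4 and none under library totals alone). The summed level of the 23, here by library totals without TMM factors, was 61.0 to 87.6 CPM at T0 and 82.2 to 119.9 CPM at 24 h. The largest part of this sum was EPCAM, an epithelial surface protein. By TMM-scaled values this line holds EPCAM at 37.1 to 41.5 CPM at T0 and 55.8 to 61.7 CPM at 24 h. The fibroblast collagen COL1A1 was at 3.70, 4.48 and 10.8 CPM at T0 and 22.1, 19.6 and 4.85 CPM at 24 h. T0 replicate 3 and DMSO 24 h replicate 3 thus overlapped, and COL1A2 and COL3A1 also had T0 replicate 3 highest and DMSO 24 h replicate 3 lowest of their groups, although all 3 passed the test (log2FC 1.43 ± 0.38, 1.64 ± 0.44 and 1.40 ± 0.30). The part of these genes in the other results was not tested.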

How the data were processed

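RNA of 39 JJN3 libraries was sequenced (NEBNext Ultra kit, per the labels' protocols). The submitters' processing notes list HISAT2 2.1.0 and hg19, with no further detail. The counting tool, annotation and strand setting were not stated in those sources. The authors deposited raw counts per gene, which were used as they stand. Symbols came from a name table for 51996 of 57773 identifiers and from GENCODE 29 for 342; 5435 have none. Replicate numbers follow accession order. All 39 libraries (13 groups of 3) were fitted together in R 4.3.3 with edgeR 4.0.16 and limma 3.58.1 (TMM, filterByExpr with a minimum count of 10, 26 residual degrees of freedom, biological coefficient of variation 4.8%), and DESeq2 1.42.0 was an alternative. Fitting was tested on simulated data. Named genes were, among changed genes with a symbol, an average log2 CPM of at least 1 and groups that did not overlap (immunoglobulin genes left out), the 12 largest rises and falls and the 10 smallest p in each direction, besides up to 6 changed members of each list and a fixed set; not all are printed. The members and lists (35 lists, 690 symbols, 685 matched, 610 tested) were chosen with earlier results of these data known. Intervals on counts are at 95% and, like the floors of 3 counts, cover counting error only.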

Additional observations from a re-analysis of the deposited data

Results flagged for a closer look

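In 7 cases, among the genes followed one by one, the 3 libraries of 24 h all lay on 1 side of the 3 of 6 h in DMSO and all on the opposite side in a compound; the difference between compound and vehicle was not tested. From 6 to 24 h in GSK-J4, SESN2 had a log2FC of -0.61 (mean 285 to 187 CPM) where DMSO had 0.79 (44.1 to 75.9 CPM), and SLC38A2 had -0.53 (955 to 664 CPM) where DMSO had 1.2 (294 to 675 CPM). MT1X had -0.57 in GSK-J4 (760 to 511 CPM) and 1.36 in DMSO (7.11 to 18.3 CPM), and SLC30A1 -0.22 (233 to 199 CPM) and 0.88 (61.7 to 114 CPM). The mean of each of these 4 genes was higher at 6 h in GSK-J4 than at 24 h in DMSO. FKBP5 had 0.07 in GSK-J4 and -0.22 in DMSO, and the low-level clock output gene TEF 1.07 (1.46 to 3.13 CPM) and -0.72 (3.41 to 2.03 CPM). HMOX1 had -1.06 in ZnSO4 (1170 to 562 CPM) and 0.49 in DMSO (78.0 to 110 CPM).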

How the results depend on the processing

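Against T0 at 24 h the count of changed genes stayed within 1.5 times of 9140 under all alternatives: 9147 with RLE size factors, 9288 with library totals alone, 8743 with no filter (45074 genes tested), 8760 with DESeq2, 8066 with the 6 libraries alone and 8842 with the 15 T0 and DMSO libraries. Library totals alone shared 7511 of the 9140 calls, 7503 with the same sign, and moved the split from 4406 higher and 4734 lower to 2769 and 6519. Leaving out each library gave 8571 to 8952 changed genes, 1068 to 1146 at least 2-fold higher and 1791 to 1944 at least 2-fold lower; for 24 h against 6 h these were 8460 to 8794, 1041 to 1217 and 1729 to 1785. Genes changed at 1 h (5) became 0 with RLE factors, library totals, the 15 libraries or the groups compared alone, 31 with no filter and 13 with DESeq2, and 1 to 58 with a library left out. At 3 h (14) the counts were 78 with no filter, 1 with the 15 libraries, 0 with the groups alone, 140 with DESeq2 and 1 to 703 with a library left out. At 6 h (2) they were 0 with library totals, the 15 libraries or the groups alone, 60 with no filter, 45 with DESeq2 and 0 to 801 with a library left out; the cause was not tested. Of 242 genes followed one by one, 219 kept direction and side of the threshold under each alternative that gave them a value; some had none with the 15 libraries or the groups compared alone. Those that turned did so under library totals alone: MT-CO1 (-0.02), RPL13 (-0.16) and JCHAIN (-0.08). No paired analysis was possible because the columns carry only running sample numbers, which the groups do not share. Genes at a few counts are limited by depth.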
